A study of Mus musculus with 15 samples.

Results

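Fibronectin, fibulins and matricellular proteins are secreted by fibroblasts and decide how cells hold on to the matrix around them. This account follows 10 genes of that group in mouse fibroblasts before and after ultraviolet damage: Fn1, Fbln1, Fbln2, Fbln5, Sparc, Tnc, Thbs1, Thbs2, Postn and Eln. They were picked by symbol, and all 10 were found among the 19069 genes of the RNA count files and, with 1 promoter row each, among the 21881 promoters of both chromatin tables. All cells were NIH3T3, an established line of mouse embryonic fibroblasts, so every group comes from a single line. The untreated groups received no treatment. For the irradiated groups, 80 J/m2 of UV-C light at 254 nm was given in place, the medium was replaced by fresh medium with DMSO, and cells were taken 6 h later. The labels do not say whether untreated cells were also washed and re-fed, so irradiation, re-feeding and DMSO cannot be told apart. RNA-seq had 3 untreated and 3 irradiated libraries. FAIRE-seq, which recovers DNA that is loosely packed with protein, and ChIP-seq for H3K27ac, the acetylation at lysine 27 of histone H3 that marks active promoters and enhancers, had 2 samples per condition, and their tables hold the merged reads of each condition.

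Fibronectin is assembled by cells into fibrils through integrin receptors, and those fibrils serve as a scaffold on which other matrix proteins are laid down. Fibulins are calcium-binding glycoproteins that link fibronectin, basement membranes and elastic fibres. Matricellular proteins, to which SPARC, tenascin-C, the thrombospondins and periostin belong, contribute little to the mechanical frame of tissue and instead tune adhesion, growth factor release and repair after injury.

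The promoters printed here are those that set the chromatin results described further on. The Tnc promoter gained H3K27ac, and those of Fbln5, Sparc and Thbs2 had the largest falls of FAIRE enrichment among the 10 genes. RefSeq promoter sequences of build GRCm38.p6 were found for 7 of the 10 genes, and none was found for Fn1, Thbs1 and Eln. Each line gives the 250 bases upstream of a gene's outermost listed start, 5′ to 3′ on the gene's strand, which is the minus strand for all of them. The windows are chr4:64047016-64047265 for Tnc, chr12:101819120-101819369 for Fbln5, chr11:55420081-55420330 for Sparc and chr17:14694263-14694512 for Thbs2. Capitals mark matches, on either strand, to 4 short motifs: the AP-1 site TGACTCA, the TATA box TATAAA, the GC box GGGCGG and the E-box CACGTG.

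Tnc: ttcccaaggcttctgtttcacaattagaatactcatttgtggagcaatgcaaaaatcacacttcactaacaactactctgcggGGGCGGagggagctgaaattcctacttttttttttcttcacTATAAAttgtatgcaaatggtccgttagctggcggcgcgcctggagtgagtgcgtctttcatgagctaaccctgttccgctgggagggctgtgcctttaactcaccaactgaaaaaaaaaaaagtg

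Fbln5: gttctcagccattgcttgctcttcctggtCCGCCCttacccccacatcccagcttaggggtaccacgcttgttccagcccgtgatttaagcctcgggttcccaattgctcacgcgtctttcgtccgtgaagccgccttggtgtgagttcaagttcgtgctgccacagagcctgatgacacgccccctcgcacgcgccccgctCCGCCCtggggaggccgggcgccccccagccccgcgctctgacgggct

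Sparc: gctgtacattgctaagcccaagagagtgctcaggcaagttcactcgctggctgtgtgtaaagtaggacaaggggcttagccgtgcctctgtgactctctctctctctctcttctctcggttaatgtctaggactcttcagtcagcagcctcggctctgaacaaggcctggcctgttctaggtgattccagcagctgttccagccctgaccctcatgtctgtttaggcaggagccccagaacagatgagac

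Thbs2: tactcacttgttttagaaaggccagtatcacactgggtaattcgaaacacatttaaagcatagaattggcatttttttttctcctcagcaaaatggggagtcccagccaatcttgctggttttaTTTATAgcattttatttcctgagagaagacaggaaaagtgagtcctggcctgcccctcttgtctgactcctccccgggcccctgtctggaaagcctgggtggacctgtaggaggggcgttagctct

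The Tnc window held a GC box whose first base is at -167 from the start and a TATA box at -126. Fbln5 held GC boxes at -221 and -48 and Thbs2 a TATA box at -126, all of them on the opposite strand. The Sparc window held none of the 4 motifs. Of the 11 promoter entries listed for the 7 genes, which count overlapping alternative starts separately, 5 held a GC box, 4 a TATA box, 2 an E-box and 0 an AP-1 site. Over all 32851 promoter entries of the same length the shares were 32.7%, 12.4%, 6.02% and 4.46%. The chromatin tables count reads in windows of 1000 bp on build mm9 whose positions the tables do not state, so how far these sequences overlap those windows is not known.

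The RNA libraries held 14211528 to 22032701 counts, and 14925 genes, including all 10, had enough counts to test. Levels are given as CPM, counts scaled to library size with TMM (trimmed mean of M-values) factors. They are not corrected for transcript length and so are compared between libraries, not between genes. Fibroblast markers (Col1a1, Col1a2, Vim, Pdgfrb, Pdgfra, Thy1, S100a4) had a summed level between 13906 and 17354 CPM without and between 14459 and 25088 CPM with irradiation. Epithelial, endothelial and immune marker lists each summed to at most 18.9 CPM in any library, and none of their genes was at 0 in all of them. Irradiated replicate 1 stood apart, with 17607 genes detected against 18350 to 18787 elsewhere, so each result below is also given without it where that changes a call, turns the direction or moves a called value by more than 1.5 times. The labels do not say whether libraries came from separate cultures, so the p-values speak only for variation among the 6 libraries, which may be technical. In bulk RNA, fewer cells expressing a gene and less of its RNA per cell cannot be told apart.

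Fibronectin mRNA rose after irradiation, with a 2.99-fold ratio of group means, alongside a smaller rise of the elastogenic fibulin gene Fbln5, and no other gene of the 10 passed the test. By edgeR's quasi-likelihood test at an adjusted p below 0.05, 2 of the 10 were higher and 0 lower, against 7.70% and 12.4% of all tested genes. At an unadjusted p below 0.05 the counts were 3 and 0, against 2005 and 2486 of all 14925 tested genes. DESeq2 also called 2 and 0, against 910 and 1395 of the 11920 genes it tested. The median log2 fold change of the 10 genes was 0.35, beside -0.0091 for all tested genes. Without irradiated replicate 1 these medians were 0.037 and 0.053, so the higher median of the 10 genes rested on that library. In 3 genes all irradiated libraries lay above all untreated ones, and in 0 they lay below, where 16.6% and 17.3% of all tested genes were separated that way. Without untreated replicate 1 the count was 5 higher and 0 lower, where 11.5% and 9.68% of all genes were called, and without irradiated replicate 1 it was 2 and 1.

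**Figure D1:**
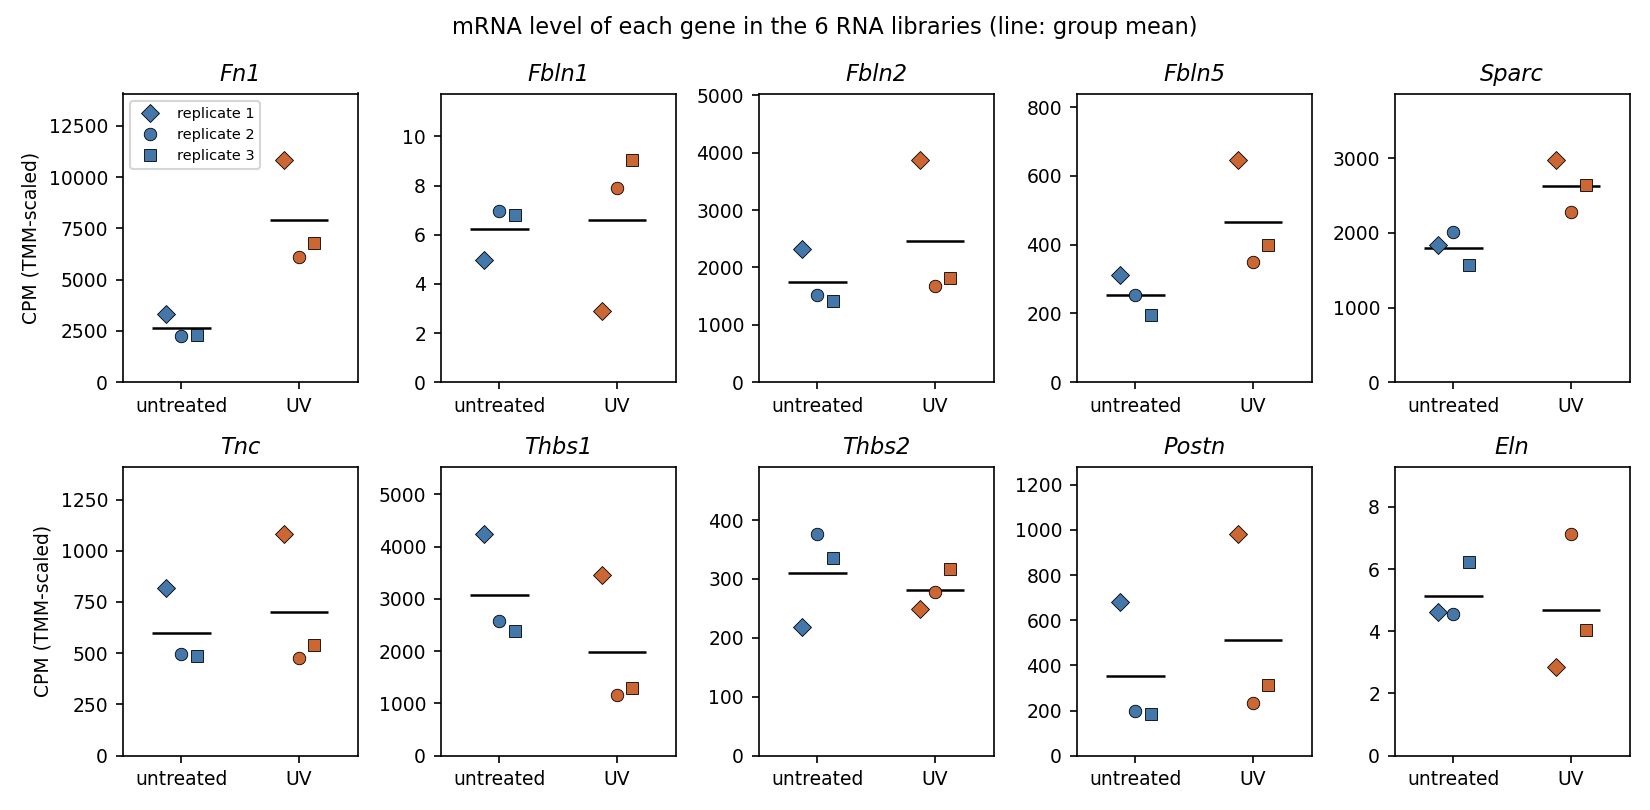
TMM-scaled CPM (vertical axes, each from 0) of the 10 genes in the 3 untreated (blue) and 3 irradiated (orange) RNA libraries, with 1 symbol per replicate number and a line at each group mean. Irradiated libraries of Fn1, Fbln5 and Sparc lie above all untreated ones, and replicate 1 (diamonds) is the highest library of both groups in 6 genes.

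Fn1 encodes fibronectin itself. It was at 3348, 2268 and 2300 CPM in untreated replicates 1 to 3 and at 10832, 6086 and 6776 CPM in irradiated replicates 1 to 3. The lowest irradiated library was thus above the highest untreated one, and replicate 1 was highest in both groups. The log2 fold change was 1.58 ± 0.24 (SE, n = 3 per group, edgeR adjusted p = 0.000144). Without irradiated replicate 1 it was 1.27 (edgeR adjusted p = 0.000107). Reads of this single gene made up 0.230% to 0.355% of an untreated library and 0.631% to 0.869% of an irradiated one. In the authors' deposited table of changed genes, Fn1 was the 1 gene of the 10 listed. Its log2 fold change there was 1.60, with an adjusted p of 0.00228. That table holds 2068 entries with adjusted p-values of up to 0.0999, a looser limit than the threshold used here.

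The fibulin genes did not move alike. Fbln5, whose product binds integrins and guides tropoelastin onto microfibrils, was at 310.5, 254 and 194 CPM in untreated and 646, 348 and 399 CPM in irradiated libraries. The groups did not overlap, and the log2 fold change was 0.88 ± 0.25 (SE, edgeR adjusted p = 0.0190). Without irradiated replicate 1 it was 0.55, just inside the threshold (edgeR adjusted p = 0.0491). The authors' deposited table of changed genes does not list Fbln5, although its adjusted p-values reach 0.0999. Fbln2, which encodes a fibronectin-binding fibulin, was at 2324, 1514 and 1421 CPM in untreated and 3870, 1677 and 1812 CPM in irradiated libraries. Its groups overlapped, because untreated replicate 1 lay above irradiated replicates 2 and 3. Its log2 fold change of 0.48 ± 0.29 did not pass (edgeR adjusted p = 0.298). It was -0.023 without irradiated replicate 1 (adjusted p = 0.973) and 0.84 without untreated replicate 1, where it passed (adjusted p = 0.0486). Fbln1, another fibronectin-binding fibulin, was at 4.98 to 6.96 CPM in untreated and 2.91 to 9.04 CPM in irradiated libraries, with 47 to 178 counts per library, and its log2 fold change was 0.08 ± 0.32 (edgeR adjusted p = 0.958). Scaling by library totals turned the estimate to -0.11, and leaving out irradiated replicate 2 or 3 gave -0.066 or -0.23.

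Few RNA counts were found for elastin, the polymer that Fbln5 helps to assemble. Eln had 46 to 163 counts per library, or 4.55 to 6.24 CPM in untreated and 2.85 to 7.14 CPM in irradiated libraries. The groups overlapped at a log2 fold change of -0.14 ± 0.31 (SE, edgeR adjusted p = 0.908), which was 0.097 without irradiated replicate 1 and 0.17 without untreated replicate 3.

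Among the matricellular genes, Sparc leaned upward, Thbs1 was lower in most irradiated libraries, and Tnc, Postn and Thbs2 overlapped between the groups. SPARC binds collagen and modulates its deposition. Its mRNA was at 1832, 2013 and 1564 CPM in untreated and 2975, 2275 and 2645 CPM in irradiated libraries, with no overlap. The log2 fold change of 0.55 ± 0.20 narrowly missed the threshold (edgeR adjusted p = 0.0675). It passed without untreated replicate 1, 2 or 3 (adjusted p = 0.0406, 0.0193 and 0.0421), with library totals alone (adjusted p = 0.0478) and with a stricter filter of at least 1 CPM in 3 libraries (adjusted p = 0.0215). It did not pass without irradiated replicate 1, 2 or 3 (adjusted p = 0.270, 0.0584 and 0.330). Nor was it called with no filter on low counts (0.321), in DESeq2 (0.0815) or with DESeq2's size factors (0.0905).

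Thrombospondin-1, the product of Thbs1, binds the receptor CD47 and can free TGF-beta from its latent complex. Its mRNA was at 4248, 2568 and 2383 CPM in untreated and 3466, 1164 and 1303 CPM in irradiated libraries. Irradiated replicates 2 and 3 lay below every untreated library, whereas irradiated replicate 1 lay above untreated replicates 2 and 3. The log2 fold change of -0.63 ± 0.34 did not pass (SE, edgeR adjusted p = 0.226). Without irradiated replicate 1 it was -1.33 (edgeR adjusted p = 5.32e-05), and in that fit 2 of the 10 genes were higher and 1 lower, against 7.62% and 18.3% of all genes tested there. Thbs2, which encodes the related thrombospondin-2, was at 219, 377 and 335 CPM in untreated and 249, 279 and 318 CPM in irradiated libraries. These groups overlapped, with a log2 fold change of -0.14 ± 0.23 (edgeR adjusted p = 0.844), and the estimate was 0.15 and 0.037 without untreated replicates 2 and 3.

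Tenascin-C, the product of Tnc, interferes with cell adhesion to fibronectin and is typical of matrix under repair. Its mRNA was at 819, 495 and 486 CPM in untreated and 1084, 477 and 541 CPM in irradiated libraries. Apart from replicate 1, the irradiated libraries were on both sides of the untreated ones, and the log2 fold change of 0.22 ± 0.29 did not pass (SE, edgeR adjusted p = 0.763). Leaving out irradiated replicate 1 gave -0.25, and scaling by library totals gave -0.056. Periostin, the product of Postn, binds fibronectin and tenascin-C and promotes collagen crosslinking. Its mRNA was at 679, 198 and 185 CPM in untreated and 983, 235 and 312 CPM in irradiated libraries. Libraries of the same group differed more than the groups did, by 3.68-fold among untreated and 4.19-fold among irradiated ones. The log2 fold change was 0.53 ± 0.47 (edgeR adjusted p = 0.574). It was -0.39 without irradiated replicate 1 (adjusted p = 0.284) and 1.50 without untreated replicate 1, where it passed (adjusted p = 0.0135).

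**Figure D2:**
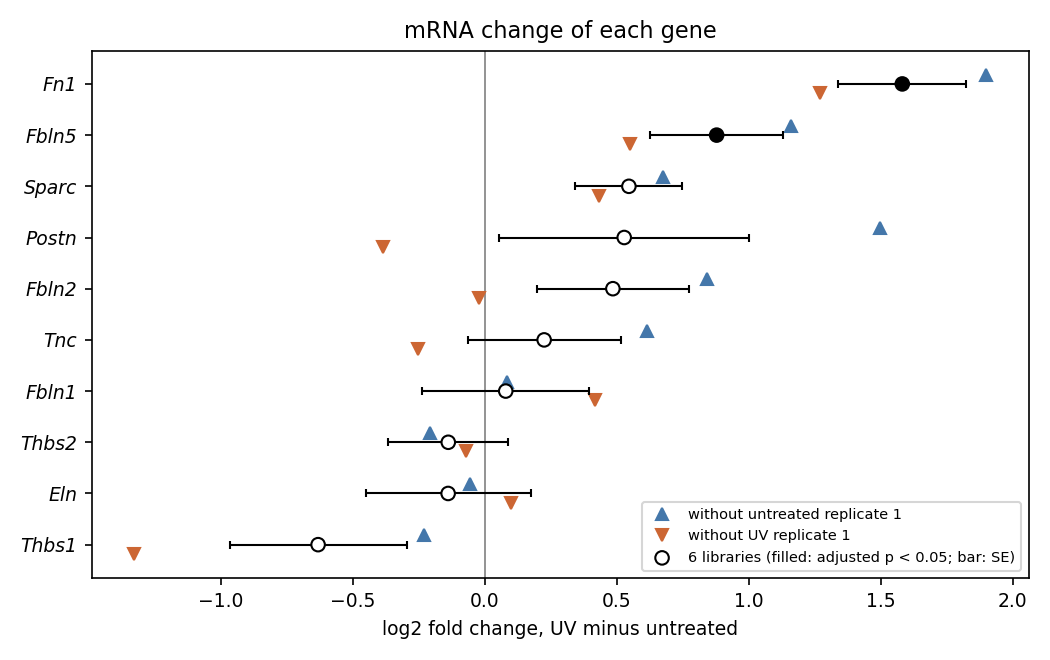
Log2 fold change of mRNA (horizontal axis, irradiated minus untreated) for each gene in edgeR's fit of the 6 libraries (circles with SE bars, filled where the adjusted p is below 0.05) and in the fits without untreated replicate 1 (upward triangles) and without irradiated replicate 1 (downward triangles). Fn1 and Fbln5 stay above 0 in each of these fits, while Postn moves from -0.39 to 1.50.

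Replicate 1 of either condition carried more of most of these mRNAs than its companions. In 6 genes (Fn1, Fbln2, Fbln5, Tnc, Thbs1 and Postn) it was the highest library of both the untreated and the irradiated group. The share of all tested genes with that pattern was not computed, so it is not known to be particular to these genes. Postn in replicate 1 exceeded the mean of replicates 2 and 3 by 1.83 in untreated and 1.86 in irradiated cells on the log2 CPM scale. For Thbs1 the excess was 0.78 and 1.49, for Tnc 0.74 and 1.09, and for Fbln2 0.66 and 1.15. Fbln1, Eln and Thbs2 were lower in replicate 1 instead, Fbln1 by -0.47 and -1.54. Over all tested genes the standard deviation of the same quantity was 0.43 in untreated and 0.89 in irradiated cells. Among smooth muscle markers, Acta2, an actin gene that fibroblasts also express, was highest in replicate 1, at 2486 CPM in untreated replicate 1 against 936 and 822 CPM, and at 3925 CPM in irradiated replicate 1 against 1035 and 1154 CPM. The smooth muscle markers together summed to 846 to 2509 CPM in untreated and 1072 to 3959 CPM in irradiated libraries, with Myh11 and Des at no more than 4.30 and 1.68 CPM. The contractile gene Cnn1 was instead lowest in replicate 1, at 18.1 CPM against 21.8 and 19.4 CPM in untreated and at 30.0 CPM against 31.3 and 36.0 CPM in irradiated cells, and it rose after irradiation (log2 fold change 0.71, edgeR adjusted p = 0.00578). The part of Acta2 or Cnn1 levels in the replicate differences was not tested.

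**Figure D3:**
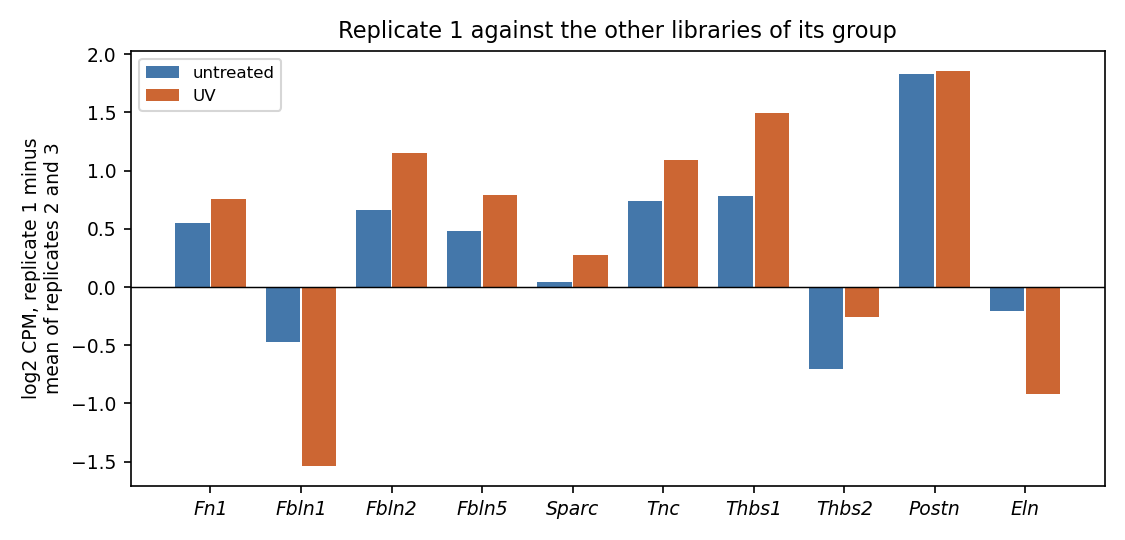
Log2 CPM of replicate 1 minus the mean log2 CPM of replicates 2 and 3 (vertical axis) for each gene, in untreated (blue bars) and irradiated (orange bars) cells. The bars of a gene point the same way in both conditions for all 10 genes, upward for Fn1, Fbln2, Fbln5, Sparc, Tnc, Thbs1 and Postn.

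At the promoters, FAIRE enrichment was lower after irradiation at 9 of the 10 promoters, while H3K27ac was lower at 6 and higher at 4. The values are log2 enrichments over input for 1 pool per condition, and no replicate error or test can be given for them. Differences of 1 log2 unit or more were counted as gains or losses, and read ratios are given with exact binomial intervals (95%) that cover counting error only. By that measure FAIRE had 0 gains and 1 loss among the 10, against 0.00457% and 1.05% of all promoters. H3K27ac had 1 gain and 0 losses, against 2.38% and 3.43%. The median FAIRE difference was -0.31 for the 10 promoters and -0.17 for all promoters, of which 68.0% were lower after irradiation. Centring on that median turned the FAIRE difference positive at Fbln1 (0.095), Fbln2 (0.10) and Postn (0.060). The median H3K27ac difference was -0.074 beside -0.013 for all promoters, of which 56.1% were lower.

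**Figure D4:**
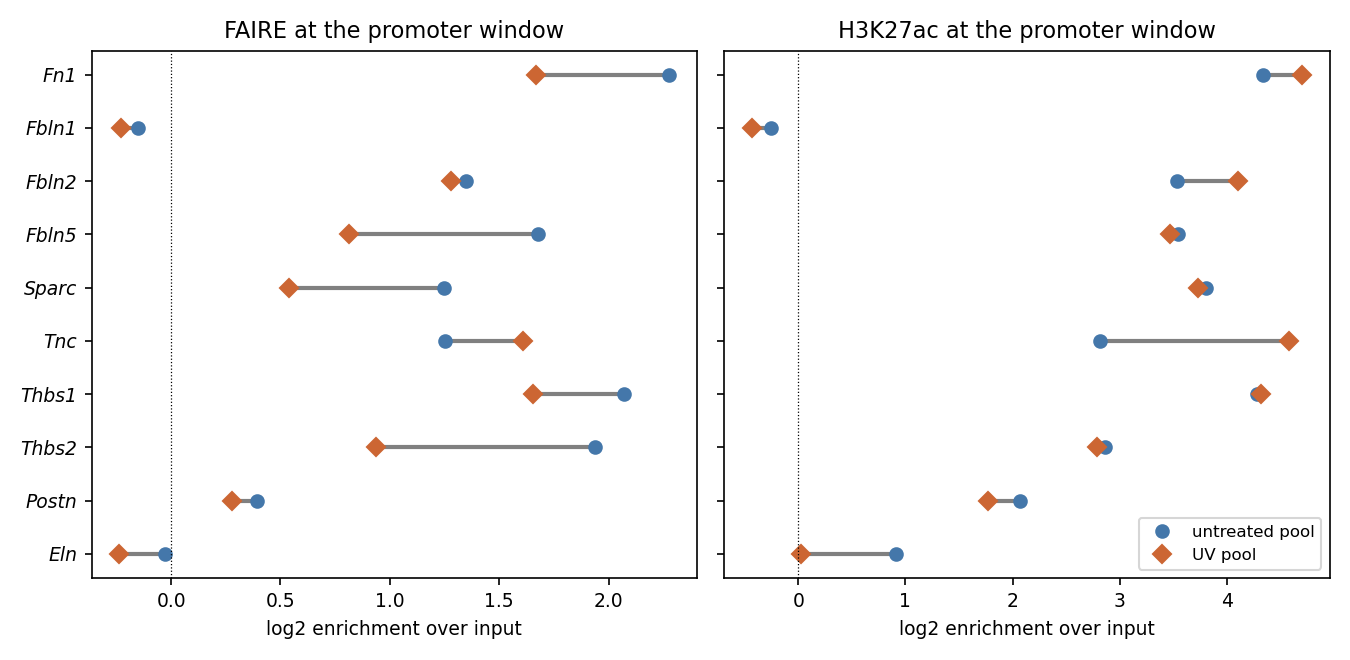
Log2 enrichment over input (horizontal axes) at the promoter window of each gene for the untreated pool (circles) and the irradiated pool (diamonds), FAIRE on the left and H3K27ac on the right. Tnc is the 1 gene that moves to the right in FAIRE and has the widest shift in H3K27ac, from 2.82 to 4.58.

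Tnc had the 1 gain of H3K27ac among the 10 promoters, and its FAIRE enrichment was higher by less than the threshold. H3K27ac reads in its promoter window numbered 271 in the untreated and 962 in the irradiated pool, a depth-scaled ratio of 3.52 (interval 3.07 to 4.04). The enrichment went from 2.82 to 4.58, a difference of 1.76 that exceeded 99.8% of all promoters. FAIRE reads went from 77 to 89, a depth-scaled ratio of 1.44 (interval 1.05 to 1.98), and the enrichment from 1.25 to 1.61. All promoters were split into 10 classes of equal size by mean enrichment, and among the 2188 in the FAIRE class of Tnc the median difference was -0.45, and 0.183% had a larger rise than the 0.35 of Tnc. The H3K27ac gain stood beside an mRNA level whose groups overlapped.

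Fbln5, Thbs2 and Sparc had lower FAIRE signal after irradiation and nearly level acetylation. At Thbs2 FAIRE reads went from 151 to 57, a depth-scaled ratio of 0.470 (interval 0.340 to 0.642), and the enrichment from 1.94 to 0.94. That difference lay on the threshold for a loss, and it was -0.83 after centring on all promoters. Its H3K27ac reads numbered 316 and 301, and that enrichment was 2.86 and 2.79. At Fbln5 FAIRE reads went from 94 to 38, a ratio of 0.504 (interval 0.336 to 0.741), with enrichments of 1.68 and 0.81. The H3K27ac reads of Fbln5 numbered 402 and 381, at enrichments of 3.55 and 3.47. At Sparc FAIRE reads went from 64 to 28, a ratio of 0.545 (interval 0.336 to 0.862), while H3K27ac reads numbered 474 and 452. Within their classes of mean FAIRE enrichment, 2.97% fell further than Thbs2, 6.03% further than Fbln5 and 12.2% further than Sparc. Fbln5 thus combined a lower FAIRE signal with a higher mRNA level, as did Fn1. The median FAIRE difference in the class of Fbln5 was itself -0.45.

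Fn1 had one of the strongest promoters in both assays before irradiation, above 96.9% of promoters in FAIRE and 96.6% in H3K27ac. Its FAIRE reads went from 189 to 102, a ratio of 0.672 (interval 0.523 to 0.860), and the difference of -0.61 was close to the median of -0.55 in its class. Its H3K27ac reads went from 879 to 1143, a ratio of 1.29 (interval 1.18 to 1.41), and the difference of 0.37 was likewise close to the median of 0.35 in its class. Thbs1, with 747 and 773 H3K27ac reads, had enrichments of 4.28 and 4.32, and its FAIRE difference was -0.42. H3K27ac reads at Fbln2 went from 438 to 665, a ratio of 1.51 (interval 1.33 to 1.70) that is short of a gain, and 17.9% of its class rose more, with a FAIRE difference of -0.071. Postn was lower in H3K27ac, at 137 and 109 reads, a ratio of 0.789 whose interval of 0.608 to 1.02 includes 1. The promoter of Eln carried 54 and 22 H3K27ac reads, a ratio of 0.404 (interval 0.234 to 0.675). Fbln1 had 11 and 8, so that no difference was detectable at this depth. Both of these genes, which had few RNA counts, lay at or below the input level in FAIRE, with enrichments between -0.24 and -0.029.

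The genes that work with these proteins were read from 4 further lists, to be set against the 7.70% of all tested genes that were higher and the 12.4% that were lower. List counts from fits without 1 library have other backgrounds. These were 7.62% higher and 18.3% lower without irradiated replicate 1, and 11.5% and 9.68% without untreated replicate 1. Without untreated replicate 2 they were 1941 and 1168 of 15587 genes, and without irradiated replicate 3 they were 585 and 1139 of 15581. Of 24 other fibulins and matricellular relatives 2 rose and 1 fell, at a median log2 fold change of 0.19. Efemp2, which encodes the elastogenic fibulin-4, was at 256, 303 and 269 CPM in untreated and 457, 403 and 431 CPM in irradiated libraries (log2 fold change 0.64 ± 0.20, edgeR adjusted p = 0.0288). It was no longer called when irradiated replicate 3 was left out (adjusted p = 0.218) or when no filter on low counts was used (adjusted p = 0.121). Thbs3, a thrombospondin gene, rose by 0.54 (adjusted p = 0.0411), a call lost without irradiated replicate 3 (adjusted p = 0.321), with scaling by library totals (0.239), with no filter on low counts (0.126) and in DESeq2 (0.0737). Wisp1, a gene of the CCN family of matricellular proteins, fell from 109, 98.2 and 84.4 CPM to 70.7, 38.9 and 45.9 CPM (log2 fold change -0.91 ± 0.22, edgeR adjusted p = 0.00596). Without untreated replicate 2 there were 5 rises in this list, without irradiated replicate 1 there were 4 rises and 2 falls, and without irradiated replicate 3 there was 1 rise.

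Of 13 tested elastic fibre partners 4 rose and 0 fell in edgeR's test. The counts were 4 and 1 at an unadjusted p below 0.05, against 2005 and 2486 of all 14925 tested genes. DESeq2 called 2 and 0, against 910 and 1395 of the 11920 genes it tested. The median log2 fold change of the elastic fibre partners was 0.22. The rises were those of 3 latent TGF-beta binding protein genes and a microfibril gene. Ltbp2 was at 450, 344 and 357 CPM in untreated and 962, 561 and 594 CPM in irradiated libraries (log2 fold change 0.88 ± 0.24, edgeR adjusted p = 0.0127). Ltbp3 rose by 0.84, Ltbp4 by 0.57 and the microfibril gene Mfap5 by 0.55 (adjusted p = 0.0244, 0.0267 and 0.0466). Without irradiated replicate 1 the counts were 2 rises and 2 falls, with Ltbp2 at 0.57 (adjusted p = 0.0469), Ltbp3 at 0.45 and Mfap5 at 0.40 (adjusted p = 0.0825 and 0.0764). Without irradiated replicate 3 there were 2 rises, and the adjusted p of Ltbp4 was 0.0778 and that of Mfap5 0.206. Without untreated replicates 2 and 3 the adjusted p of Ltbp3 was 0.0743 and 0.0573. Scaling by library totals left Ltbp3 and Ltbp4 uncalled (0.0661 and 0.169), and DESeq2 left Ltbp4 and Mfap5 uncalled (0.0571 and 0.0949). Both were also uncalled with no filter on low counts (0.0908 and 0.116), and Mfap5 with DESeq2's size factors (0.0565).

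Of 17 cell surface receptors 1 rose and 1 fell, and the median log2 fold change was -0.080. Lrp1, which encodes an endocytic receptor that clears thrombospondins and other matrix ligands, was at 653, 558 and 658 CPM in untreated and 2089, 1540 and 1668 CPM in irradiated libraries. That log2 fold change of 1.50 ± 0.21 (SE, edgeR adjusted p = 6.00e-05) was close in size to that of Fn1. Itga3, an integrin subunit best known for binding laminin, fell from 33.4, 32.8 and 35.9 CPM to 25.4, 20.6 and 20.2 CPM (log2 fold change -0.62, adjusted p = 0.0139). It was not called without irradiated replicate 3 (adjusted p = 0.172), in DESeq2 (0.059) or with no filter on low counts (0.0583). Itga5 and Itgb1, the subunits of the classical fibronectin receptor, had log2 fold changes of -0.53 ± 0.26 and 0.15 ± 0.25 (edgeR adjusted p = 0.174 and 0.846) and are named here after their values were seen. Itga5 was called lower without irradiated replicate 1 (-1.01, adjusted p = 3.54e-06) and with scaling by library totals (-0.81, adjusted p = 0.0246). Without irradiated replicate 1, 2 receptor genes rose and 4 fell, and without untreated replicate 2, 2 rose.

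Of 8 TGF-beta ligand and receptor genes 1 rose and 3 fell, and the list median was -0.41 on the log2 scale. The type II receptor gene Tgfbr2 fell from 113, 181 and 158 CPM to 75.3, 80.8 and 85.0 CPM (log2 fold change -0.91 ± 0.21, edgeR adjusted p = 0.00383). The type I receptor gene Tgfbr1 fell by 0.91 on the log2 scale (adjusted p = 0.0215) although its groups overlapped, at 78.5 to 137 CPM and 36.5 to 82.9 CPM. That call did not hold without untreated replicate 1, where the value was -0.56 (adjusted p = 0.115), without untreated replicate 2 (0.11) and without irradiated replicate 3 (0.0547). The ligand gene Tgfb1 rose from between 1.23 and 1.72 CPM to between 2.90 and 5.14 CPM (log2 fold change 1.29 ± 0.39, adjusted p = 0.0240), a call lost without untreated replicate 2 (0.0588), without irradiated replicate 1 (0.0823) and with scaling by library totals (0.0817). Tgfb3 fell by 0.55 (adjusted p = 0.0466), and its call was lost in every fit without 1 library except that without irradiated replicate 1, with adjusted p-values of 0.0533 to 0.331, in DESeq2 (0.14), with its size factors (0.0681) and with no filter on low counts (0.131). Without untreated replicate 1, untreated replicate 2 or irradiated replicate 3 the list had 1 fall, and without untreated replicate 2 or irradiated replicate 1 it had 0 rises.

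**Figure D5:**
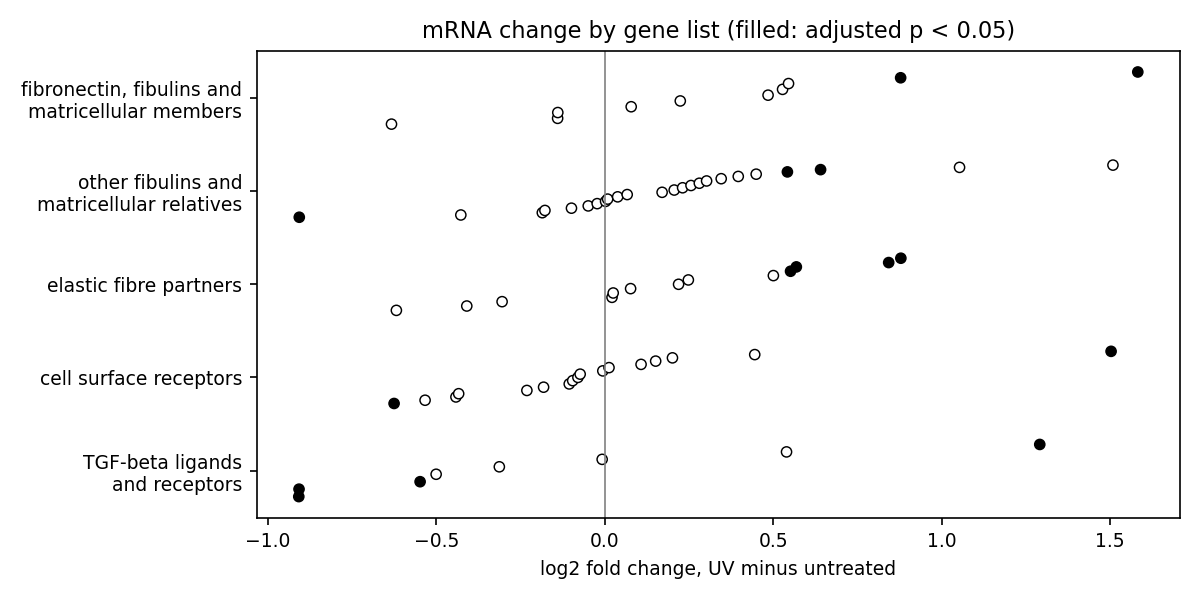
Log2 fold change of mRNA (horizontal axis, irradiated minus untreated) for the tested genes of each list, 1 point per gene, filled where edgeR's adjusted p is below 0.05. Fn1 is the rightmost filled point of the top row at 1.58 and Lrp1 that of the receptors at 1.50, while 3 of the 4 filled points in the TGF-beta row lie below 0.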

How the data were processed

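RNA-seq, FAIRE-seq and H3K27ac ChIP-seq values of NIH3T3 cells were used. The 10 genes and all lists were chosen with earlier results of these data known. The submitters' processing notes name build mm9 and the tools Bowtie (0.12.9), TopHat, DESeq2 and MACS2, without their roles. RNA values are whole-number counts per gene, deposited unscaled. The promoter tables hold read counts per pooled condition and the log2 enrichment that the authors deposited, which was recomputed as log2 of (reads + 16) over (scaled input reads + 16). Columns headed DMSO were taken as the irradiated pools, since the labels' protocol gives DMSO to irradiated cells. Of the per-condition columns, 8 were left unused because they match no sample. The p-value and adjusted p-value of Fn1 in the authors' deposited table were copied.

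Counts were fitted over all genes in R 4.3.3 with edgeR 4.0.16 (filterByExpr, TMM, glmQLFit, glmQLFTest), adjusting p by Benjamini-Hochberg over 14925 genes with a threshold of 0.05. The SE is the log2 fold change over the square root of F. The steps were tested on simulated data. Read ratios were scaled by the ratio of the authors' input scales. Chromatin was analysed in Python 3.11.15. The classes of promoters by mean enrichment, 10 in number, were chosen after the data were seen. Named beside the 10 genes were up to 4 called genes per list by smallest p, and marker genes. Alternatives were DESeq2 1.42.0, its size factors, library totals, other filters, a replicate block, a minimum fold on the log2 scale of 1, and leaving out each library. For chromatin they were centring, 1 added read, no input and a threshold of 0.58.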

Additional observations from a re-analysis of the deposited data

How the results depend on the processing

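Of the 10 genes, 2 were called higher and 0 lower. The count of higher genes was 1 when a minimum change of 1 on the log2 scale was also asked for, which Fbln5 lacks, and ranged from 2 to 5 without 1 library each. The count of lower genes was 1 with the replicate number as a block and 0 to 1 without 1 library each. Over all tested genes, 1149 were higher and 1854 lower. These were 270 and 801 with that minimum change, 905 and 3739 with library totals alone, which moved the median of all genes by -0.23, and 585 to 1941 and 1139 to 2849 without 1 library each. Fn1 kept its direction and its call under each alternative that was run, with log2 fold changes from 1.27 to 1.90. Estimates that changed sign were those of Fbln1 (-0.11 with library totals alone, -0.025 with the block, -0.23 to 0.42 without 1 library each) and Tnc (-0.056 with library totals alone, -0.25 to 0.62 without 1 library each). Without 1 library each, Fbln2 ranged from -0.023 to 0.84, Thbs2 from -0.24 to 0.15, Postn from -0.39 to 1.50 and Eln from -0.57 to 0.17. None of these was called in the fit of all libraries, and the cause was not tested.

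The labels do not say whether libraries of the same number share a culture or a day, so it is not known whether they are paired. The deviations of same-numbered libraries from their group means correlated at 0.15, -0.58 and 0.50 over 14925 genes, and not every library correlated best with its own number. With the block, 1276 genes were higher and 2067 lower, 3 of the 10 genes higher (with Sparc at an adjusted p of 0.0341) and 1 lower (Thbs1 at -0.77, adjusted p = 0.00108). Of the other named genes, Itga5 was called lower with the block (-0.61, adjusted p = 0.032) and Mfap5 was no longer called (adjusted p = 0.0519).

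The FAIRE loss of Thbs2 lay on the threshold, and losses numbered 4 at a threshold of 0.58 and 0 after centring. H3K27ac losses numbered 1 at a threshold of 0.58, with 1 read added in place of 16 and without the input, each from 0. That loss was at Eln, with differences of -0.89, -1.27 and -1.29 in these settings. The H3K27ac gain of Tnc stood in each of these settings. The shares of all promoters were not computed under them, so these counts cannot be set against a background. Peaks near the promoters were not run, as no coordinates of build mm9 were at hand for these genes. The counts at Fbln1 and Eln limit what can be detected there.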

Other observations

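The mRNA profile most like that of Fn1 over the 6 libraries, by Pearson's correlation of log2 CPM among 9624 genes of at least 5 CPM on average, was that of Ppp2r2a, a regulatory subunit gene of protein phosphatase 2A (0.998). Next came Wtip (0.997), the dynein heavy chain gene Dync1h1 (0.997), Qser1 (0.995) and the ubiquitin ligase gene Ubr4 (0.994). Each of the 5 was called higher after irradiation, at log2 fold changes of 0.50 to 1.44. The libraries fall into 2 groups, so these values describe the pattern and are given with no test.

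The matricellular CCN gene Ctgf, chosen after its values were seen, was likewise highest in replicate 1 of both groups, at 272 CPM in untreated replicate 1 against 36.3 and 27.6 CPM, and at 574 CPM in irradiated replicate 1 against 156 and 224 CPM. Its log2 fold change of 1.51 ± 0.62 did not pass in the fit of all libraries (edgeR adjusted p = 0.1). It passed with the replicate block (2.06, adjusted p = 2.7e-14), with DESeq2's size factors (adjusted p = 0.0435), with no filter on low counts (adjusted p = 7.81e-07) and without untreated replicate 1 or any 1 irradiated library (adjusted p between 1.77e-06 and 0.0134), and not in DESeq2's own test (adjusted p = 0.384). The fibroblast receptor gene Pdgfra was lowest in replicate 1 of both groups, at 466 CPM in untreated replicate 1 against 1254 and 1111 CPM, and at 214 CPM in irradiated replicate 1 against 404 and 413 CPM. It fell after irradiation (log2 fold change -1.46, edgeR adjusted p = 0.00308), whereas Thy1 of the same list of 7 fibroblast markers rose (0.99, adjusted p = 0.00799). The rise of Thy1 was not checked without irradiated replicate 1, its highest library at 319 CPM against 178 and 175 CPM. The other 5 markers of the list were not called, Vim and S100a4 lay higher without overlap between the groups (0.54 and 0.58), and the median of the list was 0.54. Of the marker lists, the macrophage-associated lysosomal gene Cd68 was higher after irradiation, with a mean of 4.03 ± 0.0934 CPM before and 10.6 ± 0.701 CPM after (SD, n = 3 each), and passed the test (log2 fold change 1.39, edgeR adjusted p = 0.000131), while the pan-leukocyte gene Ptprc was at no more than 2.69 CPM in any library.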
